A study of Mus musculus with 21 samples.

Results

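Gpnmb, Them5, Abhd12b, Rab30 and Sox15 are 5 of the 23713 genes in the count table of a mouse basal cell carcinoma (BCC) study, and they were chosen by their lower counts in tumour than in control libraries. That contrast therefore describes the choice: it is given below as levels and log2 fold changes with standard errors, with no test, and nothing is supported with it. The study measured polyA RNA by stranded sequencing in 21 libraries of mouse tail keratinocytes, 3 control (Con) and 4 tumour (BCC) libraries in each of 3 models. SmoM2 mice, named for an activated form of the Hedgehog transducer Smoothened, were sampled 29 days after tumour induction with their controls (batch A). Gnas-eKO mice, named for loss of Gnas, the gene of the stimulatory G protein subunit upstream of cyclic AMP, were sampled at 42 days (batch B), and PKI mice, named for a peptide inhibitor of protein kinase A, at 57 days (batch C). Con libraries came from tumour-free epidermis of control mice. The driver of each transgene or deletion, the genotype of the controls, and strain, age and sex are not given in the sources used here. Model, batch and day cannot be told apart, so each model is compared with its own controls. In SmoM2, the codes in the table headers begin with other letters for BCC than for Con libraries, so tumour and whatever those letters stand for cannot be told apart there either.

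Gpnmb encodes a heavily glycosylated transmembrane protein known from melanosomes of pigment cells and from lysosomes of macrophages. Them5 encodes a mitochondrial acyl-CoA thioesterase, which frees fatty acids from coenzyme A and has been linked to the remodelling of cardiolipin. Abhd12b belongs to the alpha/beta hydrolase domain family, many members of which cut lipid esters, and its own substrate is poorly known. Rab30 is a small GTPase of the Golgi, and Sox15 is a transcription factor of the Sox family, the only mouse member of its subgroup. BCC arises from keratinocytes in which Hedgehog signalling is active, and protein kinase A normally restrains the Gli factors at the end of that pathway.

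On GRCm38, Gpnmb lay at chr6:49036546-49070929, Them5 at chr3:94342099-94347352, Abhd12b at chr12:70154142-70183887, Rab30 at chr7:92741603-92844535 and Sox15 at chr11:69655314-69656727, each a protein-coding gene on the plus strand. Promoter sequence was taken from RefSeq (GRCm38.p6), which matched 4 of the 5 genes. The 250 bases before the RefSeq start are shown because the 4 genes were chosen for a shared direction, and capitals mark the letters of a searched motif. Gpnmb (chr6:49036268-49036517) and Them5 (chr3:94341849-94342098) held the Sox motif ACAAAG, in Them5 as its reverse complement CTTTGT. Abhd12b (chr12:70153881-70154130) and Sox15 (chr11:69654787-69655036) held the Klf motif GGGTGTG.
Gpnmb: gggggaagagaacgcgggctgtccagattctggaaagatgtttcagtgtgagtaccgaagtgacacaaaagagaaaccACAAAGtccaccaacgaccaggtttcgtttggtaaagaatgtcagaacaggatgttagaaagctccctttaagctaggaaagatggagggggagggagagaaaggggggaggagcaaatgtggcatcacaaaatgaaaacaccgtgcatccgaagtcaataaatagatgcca
Them5: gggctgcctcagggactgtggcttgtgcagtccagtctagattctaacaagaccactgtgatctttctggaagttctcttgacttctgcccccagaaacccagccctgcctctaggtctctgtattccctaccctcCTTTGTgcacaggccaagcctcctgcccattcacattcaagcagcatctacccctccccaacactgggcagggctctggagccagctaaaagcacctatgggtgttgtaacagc
Abhd12b: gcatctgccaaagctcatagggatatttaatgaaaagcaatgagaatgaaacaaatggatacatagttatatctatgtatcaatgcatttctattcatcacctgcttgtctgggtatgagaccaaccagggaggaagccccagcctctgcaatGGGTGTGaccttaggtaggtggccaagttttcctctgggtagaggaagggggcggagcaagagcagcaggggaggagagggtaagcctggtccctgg
Sox15: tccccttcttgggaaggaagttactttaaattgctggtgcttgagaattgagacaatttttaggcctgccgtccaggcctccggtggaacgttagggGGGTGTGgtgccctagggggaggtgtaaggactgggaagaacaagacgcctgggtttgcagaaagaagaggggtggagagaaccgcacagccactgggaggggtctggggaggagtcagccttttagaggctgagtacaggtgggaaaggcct

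Of 32851 RefSeq promoters of the same length, 16.5% held ACAAAG and 6.93% held GGGTGTG on either strand, so neither motif was rare. No other searched motif was in the 4 windows. These were the Gli core CCACCCA (in 8.11% of all promoters), the E-boxes CACGTG (6.02%) and CATGTG (12.3%), the AP-1 motif TGANTCA (6.75%), the short cyclic AMP response motif TGACG (17.8%), the Grainyhead motif AACCGG (5.62%) and the TEAD motif GGAATG (12.6%). A match or its absence describes only the letters of these windows.

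Library totals ran from 16645858 to 22251132 estimated counts, and levels are given as CPM, a gene's count scaled to the library total multiplied by the library's trimmed mean (TMM) factor. The keratin genes Krt5 and Krt14 were at 3859 CPM or more in every library. Gnas, the gene named in the Gnas-eKO model, was at 172 to 178 CPM in its Con and 51.1 to 115 CPM in its BCC libraries. One library stood apart. On the first principal component, Gnas-eKO BCC replicate 2 was at -20.4, between the Con libraries (-57.2 to -40.4) and the other 11 BCC libraries (32.4 to 59.4). Its level of Gli1, the pathway's own transcription factor and target, was 9.65 CPM, inside the range of its Con group (4.75 to 9.96), while the other Gnas-eKO BCC libraries were at 153 to 281. By the counts themselves, Gnas-eKO BCC replicate 3 was also far from its group. Its chi-square per degree of freedom against the other tumours was 122 to 196. Between replicate 2 and replicates 1 and 4 it was 86.1 and 90.5. Fold changes of the 5 genes and counts for Gnas-eKO that BCC replicate 2 changes are given with and without it.

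Gpnmb was the most reduced of the 5 genes in SmoM2 and Gnas-eKO. In SmoM2 its level was 234, 212 and 208 CPM in the Con libraries and 43.1, 38.9, 51.3 and 41.5 CPM in BCC. In Gnas-eKO it was 190, 188 and 202 CPM in Con and 23.0, 80.9, 40.7 and 54.0 CPM in BCC. In PKI it was 145, 208 and 288 CPM in Con and 43.9, 43.2, 78.1 and 44.5 CPM in BCC. Every BCC library was below every Con library of its model. The SmoM2 tumours lay close together, PKI BCC replicate 3 stood above its other 3 tumours, and in Gnas-eKO replicate 2 was the highest. The log2 fold change of BCC over Con was -2.30 (SE 0.10) for SmoM2, -1.95 (SE 0.34) for Gnas-eKO and -2.02 (SE 0.30) for PKI, or 20.2%, 25.8% and 24.7% of the fitted Con level. It was -2.29 in Gnas-eKO without BCC replicate 2 and -2.27 in PKI without BCC replicate 3.

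**Figure D1:**
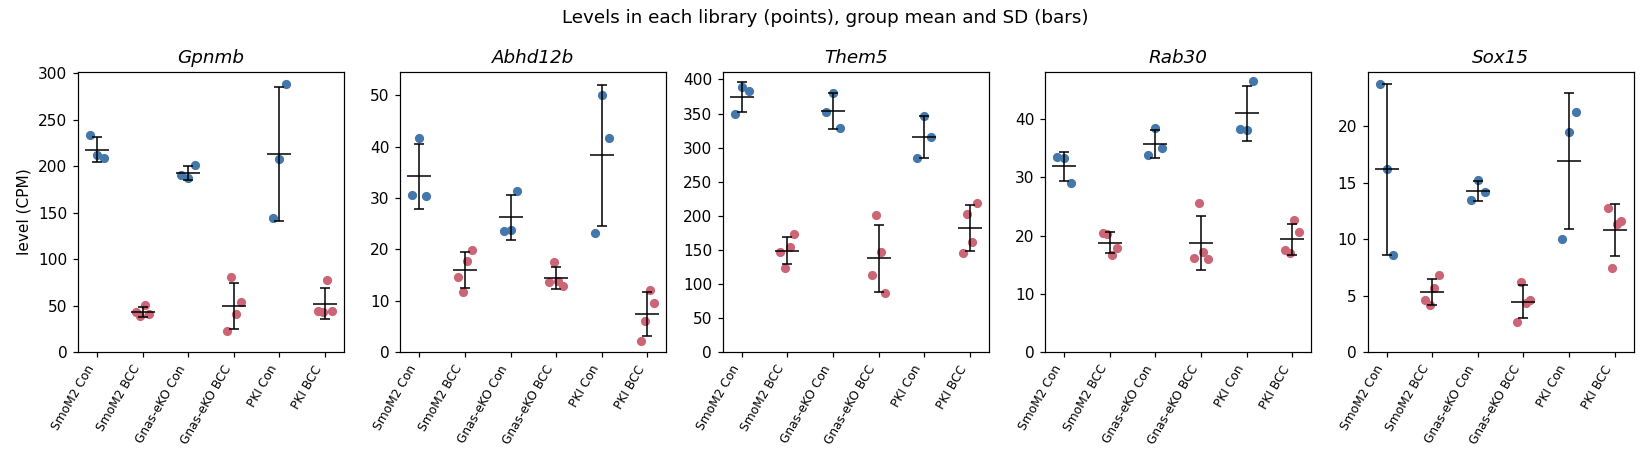
Level in CPM (vertical axes, each from 0) of each gene in the 21 libraries, by group; points are libraries (blue Con, red BCC), and bars give the group mean and SD (n = 3 Con and 4 BCC). Con and BCC points of a model do not overlap except for Sox15 in PKI.

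Them5 was the most abundant of the 5 genes. Its SmoM2 level was 349, 389 and 383 CPM in Con and 146, 123, 154 and 173 CPM in BCC. In Gnas-eKO the Con libraries were at 352, 381 and 329 CPM and the BCC libraries at 113, 202, 148 and 87.6 CPM. In PKI they were at 285, 347 and 316 CPM in Con and 146, 202, 162 and 219 CPM in BCC. Con and BCC did not overlap in any model, and the PKI tumours kept the highest mean, 182 ± 34.1 CPM (SD, n = 4). The log2 fold change was -1.31 (SE 0.10) for SmoM2, -1.35 (SE 0.25) for Gnas-eKO and -0.78 (SE 0.14) for PKI. Without Gnas-eKO BCC replicate 2 the Gnas-eKO value for Them5 was -1.59.

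Abhd12b differed most between models. Its SmoM2 Con libraries were at 30.5, 41.6 and 30.5 CPM and its BCC libraries at 14.6, 11.8, 17.7 and 19.8 CPM. In Gnas-eKO, Con was at 23.6, 23.7 and 31.3 CPM and BCC at 13.6, 17.6, 13.9 and 12.9 CPM. In PKI, Con was at 23.3, 50.1 and 41.6 CPM and BCC at 2.11, 6.04, 12.1 and 9.49 CPM. No BCC library reached a Con library of its model, and every PKI BCC library was below every BCC library of Gnas-eKO, while PKI BCC replicate 3 lay inside the SmoM2 BCC range. The log2 fold change was -1.08 (SE 0.18) for SmoM2, -0.84 (SE 0.17) for Gnas-eKO and -2.35 (SE 0.54) for PKI. The PKI estimate ran from -2.69 to -2.05 when 1 of the 7 libraries was left out in turn, the weakest without BCC replicate 1, whose 2.11 CPM rested on 41 counts. Without Gnas-eKO BCC replicate 2, the Gnas-eKO value for Abhd12b was -0.95.

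Rab30 had the smallest difference of the 5 genes in SmoM2. In SmoM2 it was at 33.5, 33.3 and 29.0 CPM in Con and 20.4, 20.4, 16.6 and 17.9 CPM in BCC. In Gnas-eKO it was at 33.8, 38.4 and 35.1 CPM in Con and 16.1, 25.7, 17.2 and 16.0 CPM in BCC. In PKI it was at 38.3, 38.1 and 46.5 CPM in Con and 17.5, 17.0, 22.6 and 20.6 CPM in BCC. The 3 BCC means were 18.8 ± 1.87, 18.8 ± 4.65 and 19.4 ± 2.66 CPM (SD, n = 4 each), and no BCC library overlapped its Con group. The log2 fold change was -0.75 (SE 0.10), -0.92 (SE 0.18) and -1.06 (SE 0.12) in SmoM2, Gnas-eKO and PKI. Without Gnas-eKO BCC replicate 2 the Gnas-eKO value for Rab30 was -1.11. The span of Rab30 contains the same-strand gene Gm45200, with no shared exonic base, and Gm45200 did not exceed 0.180 CPM in any of the 21 libraries.

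Sox15 had the lowest mean CPM of the 5 genes in every group except PKI BCC, where Abhd12b was lower, and was the one gene whose Con and BCC libraries overlapped. In SmoM2 it was at 23.7, 16.2 and 8.60 CPM in Con and 4.66, 4.15, 5.69 and 6.80 CPM in BCC. In Gnas-eKO it was at 13.4, 15.2 and 14.2 CPM in Con and 2.63, 6.22, 4.39 and 4.59 CPM in BCC. In PKI it was at 10.0, 19.5 and 21.2 CPM in Con and 12.8, 7.48, 11.3 and 11.6 CPM in BCC, so that 1 of 4 BCC libraries was below every Con library. The lowest Con library in SmoM2 was within 2 CPM of the highest BCC library, and PKI Con replicate 1 lay below 3 PKI BCC libraries. The log2 fold change was -1.59 (SE 0.33), -1.67 (SE 0.27) and -0.63 (SE 0.27) in SmoM2, Gnas-eKO and PKI. The SmoM2 value for Sox15 was -1.21 without Con replicate 1, and the PKI values without 1 library ran from -0.91 to -0.44. Without Gnas-eKO BCC replicate 2 the Gnas-eKO value was -1.87. Its last 31 exonic bases overlap Mpdu1 on the opposite strand, whose group means were 42.2 to 48.9 CPM; the counting is not stated to use strand, so reads of that stretch cannot be assigned.

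Of the 15 combinations of gene and model, 14 had every BCC library below every Con library. Over all genes tested, the same held for 19.2% (SmoM2), 9.7% (Gnas-eKO) and 20.8% (PKI), and since the genes were picked in this contrast nothing is read from their count. Genes called in either direction made up 29.7% of those tested for SmoM2, 1.63% for Gnas-eKO and 34.5% for PKI. In bulk libraries, fewer cells of a type and less RNA per cell cannot be told apart.

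**Figure D2:**
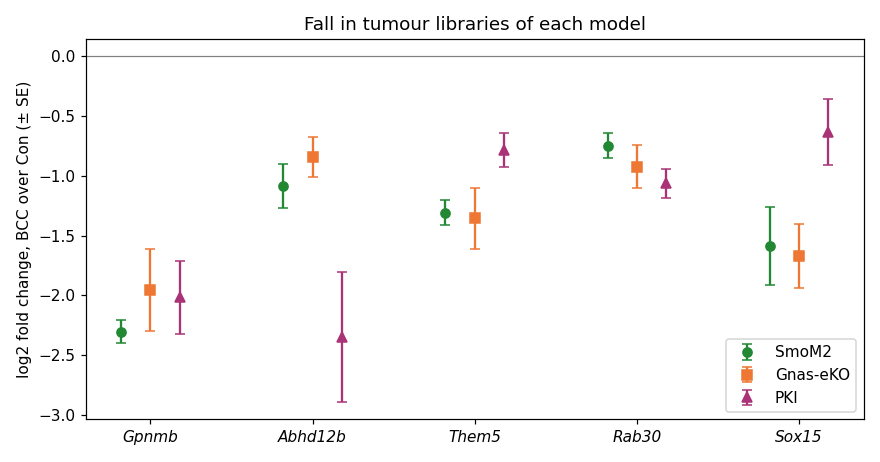
Log2 fold change of BCC over Con (vertical axis) for each gene (horizontal axis) in the 3 models; points are edgeR estimates and bars their SE, from 3 Con and 4 BCC libraries per model. Abhd12b was lowest in PKI at -2.35, where Them5 (-0.78) and Sox15 (-0.63) were nearest to 0.

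The 3 models ordered the genes differently. Abhd12b in PKI was below its SmoM2 value by a log2 difference of -1.27 (SE 0.57) and below its Gnas-eKO value by -1.51 (SE 0.57). Them5 differed the other way, with a PKI value 0.53 (SE 0.18) above SmoM2 and 0.57 (SE 0.29) above Gnas-eKO. Sox15 in PKI was 0.96 (SE 0.43) above SmoM2 and 1.04 (SE 0.38) above Gnas-eKO. For Gpnmb the 3 differences between models were at most 0.35 in size, each smaller than its SE. Rab30 had its largest difference between PKI and SmoM2, -0.32 (SE 0.16). Without Gnas-eKO BCC replicate 2, the difference of PKI from Gnas-eKO was -1.40 (SE 0.57) for Abhd12b, 0.81 (SE 0.25) for Them5 and 1.24 (SE 0.37) for Sox15. The differences of Gpnmb stayed smaller than their SE, and the largest of Rab30 was then that of Gnas-eKO from SmoM2, -0.36 (SE 0.16). These differences come from the contrast that chose the genes and were not tested, and in each of them batch and day change with the model.

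Expressed as percent of the Con mean, the residual level in each tumour library varied between tumours of a model. In Gnas-eKO, BCC replicate 2 was the highest of the 4 tumours for all 5 genes, at 41.9% for Gpnmb, 67.3% for Abhd12b, 57.0% for Them5, 71.8% for Rab30 and 43.6% for Sox15. That is the library with Gli1 at its control level. Its Krt14, a basal keratin, was at 11049 CPM against a lowest of 3859 CPM in its group, and it was the highest of the 4. In PKI, BCC replicate 3 was the highest for Gpnmb, Abhd12b and Rab30, replicate 4 for Them5 and replicate 1 for Sox15. In SmoM2, replicate 4 was the highest for Abhd12b, Them5 and Sox15. The part of Hedgehog activity or tumour content in these levels was not tested.

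**Figure D3:**
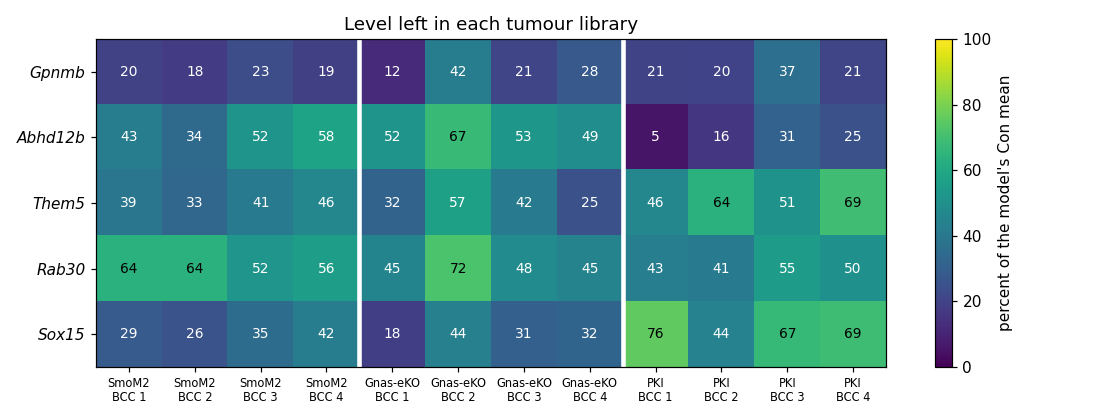
Level of each gene (rows) in each of the 12 BCC libraries (columns) as percent of the mean of that model's 3 Con libraries, with colour from 0 to 100 and the rounded percent printed in each cell. Gnas-eKO BCC 2 is the highest of its 4 tumours in every row, and the lowest cell is Abhd12b in PKI BCC 1.

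The choice of genes set tumours against controls, not the controls of one model against those of another. The same Con libraries entered that choice, so a test among them is not fully independent of it. Control levels were tested across the 3 sets of controls with edgeR's quasi-likelihood F test over 16298 genes. None of the 5 genes passed. The adjusted p was 0.893 for Gpnmb, 0.614 for Abhd12b, 0.435 for Them5, 0.256 for Rab30 and 0.939 for Sox15, and 1.64% of all genes passed. Rab30 had an unadjusted p of 0.0168 in that edgeR test, a value under 0.05 being reached by 12.6% of genes, and its PKI controls were 0.37 (SE 0.10) above the SmoM2 controls in log2 level. The Gnas-eKO and SmoM2 controls of Rab30 did not overlap, at 33.8 to 38.4 against 29.0 to 33.5 CPM. For the other 4 genes, Con groups next to each other in the order of means overlapped in range. Groups farther apart did not always overlap. Them5 was at 349 to 389 CPM in SmoM2 Con and 285 to 347 in PKI Con. Gpnmb was at 208 to 234 CPM in SmoM2 Con and 188 to 202 in Gnas-eKO Con. The spread of the controls was wide in PKI for Gpnmb (214 ± 72.0 CPM) and Abhd12b (38.3 ± 13.7 CPM), and in SmoM2 for Sox15 (16.2 ± 7.55 CPM; SD, n = 3 each). A p above the threshold does not show that the controls were equal.

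In the order of group means, the 3 Con groups came before the 3 BCC groups for every gene. For Gpnmb the order was SmoM2 Con (218 CPM), PKI Con (214), Gnas-eKO Con (193), then PKI BCC (52.4), Gnas-eKO BCC (49.6) and SmoM2 BCC (43.7). The Con groups overlapped their neighbours, as did the BCC groups. For Abhd12b the PKI BCC group (7.42 CPM) did not overlap the Gnas-eKO BCC group before it (14.5). For Sox15 the PKI BCC group (10.8 CPM) did not overlap the SmoM2 BCC group after it (5.33). All neighbouring BCC groups of Them5 and Rab30 overlapped.

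Levels of different genes were compared per kilobase of annotated exon. On that scale Them5 was the highest in SmoM2 Con, with 243 ± 14.2 CPM per kilobase, followed by Gpnmb (33.5 ± 2.14), Sox15 (18.8 ± 8.77), Abhd12b (8.68 ± 1.62) and Rab30 (3.31 ± 0.26; SD, n = 3 each). Sox15, low in CPM, thus stood above Abhd12b and Rab30 once its short transcript was counted. In PKI BCC, the level per kilobase was 12.5 ± 2.67 for Sox15 and 8.05 ± 2.63 for Gpnmb (SD, n = 4 each). In SmoM2 BCC it was 6.19 ± 1.36 for Sox15 and 6.71 ± 0.82 for Gpnmb (SD, n = 4 each), less apart than their SD. In Gnas-eKO BCC it was 5.18 ± 1.70 for Sox15 and 7.62 ± 3.74 for Gpnmb (SD, n = 4 each). Exonic lengths were 1540 bases for Them5, 6514 for Gpnmb, 861 for Sox15, 3941 for Abhd12b and 9642 for Rab30, all exons of all isoforms joined, which lowers the level per kilobase of a gene with long or many isoforms.

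The choice of genes used no measure of how they varied together within groups, although the size of that spread bears on any contrast of the groups. Log2 CPM values, each minus its group mean, were correlated between the 5 genes over 21 libraries, 10 pairs in all, with permutation within groups. All 10 Pearson coefficients were positive, from 0.245 to 0.642. The highest were for Gpnmb with Rab30 (r = 0.642, rho = 0.432, permutation p = 0.0581, adjusted 0.159) and with Sox15 (r = 0.641, rho = 0.530, permutation p = 0.00755, adjusted 0.0755). No pair reached an adjusted p under 0.05. Without the 2 libraries farthest from the median of the first gene, Gpnmb with Rab30 had r = 0.449 and with Sox15 r = 0.478, and the coefficient of Gpnmb with Them5 changed from 0.277 to -0.201. The lowest coefficient, Abhd12b with Sox15 (0.245), was 0.641 without its 2 farthest libraries (permutation, adjusted p = 0.0823). Without the Gnas-eKO BCC group, Them5 with Rab30 went from 0.461 to -0.137 and Gpnmb with Them5 to -0.0463. Abhd12b with Them5 (r = 0.451, rho = 0.597, permutation p = 0.0247, adjusted 0.124) was 0.575 without the Gnas-eKO BCC group and 0.528 without the 2 farthest libraries.

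The genes whose within-group spread was most like that of each of the 5 were ranked by Pearson r among 12029 genes, as a description; the points share libraries, batches and depth. Nearest to Abhd12b were Krt10, the main keratin of suprabasal keratinocytes (r = 0.882, rho = 0.866), Aptx, a DNA repair gene (r = 0.875), and Clip4 (r = 0.865). For Krt10, r was 0.911 without PKI BCC replicates 1 and 3, the 2 libraries farthest out for Abhd12b, and 0.924 without the PKI BCC group; for Aptx it was 0.667 and 0.617. Abhd12b and Krt10 each had their lowest level of all 21 libraries in PKI BCC replicate 1, Krt10 at 4558 CPM.

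Nearest to Rab30 were Tgm3, a transglutaminase that cross-links the cornified envelope (r = 0.893, rho = 0.873), Slc1a4, a neutral amino acid transporter (r = 0.881), and Parp10 (r = 0.862). Without Gnas-eKO BCC replicate 2 and PKI BCC replicate 3, r was 0.735, 0.648 and 0.655 for these 3. Tgm3 was lower in tumours, as Rab30 was, in SmoM2 (397 to 483 CPM in Con, 170 to 258 CPM in BCC; adjusted p = 0.0019 in edgeR) and in Gnas-eKO (log2 value -1.21, a call described with the suprabasal markers). In PKI its log2 value was 0.21 (SE 0.16; adjusted p = 0.356 in edgeR), with 386 to 647 CPM in BCC against 397 to 477 CPM in Con.

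**Figure D4:**
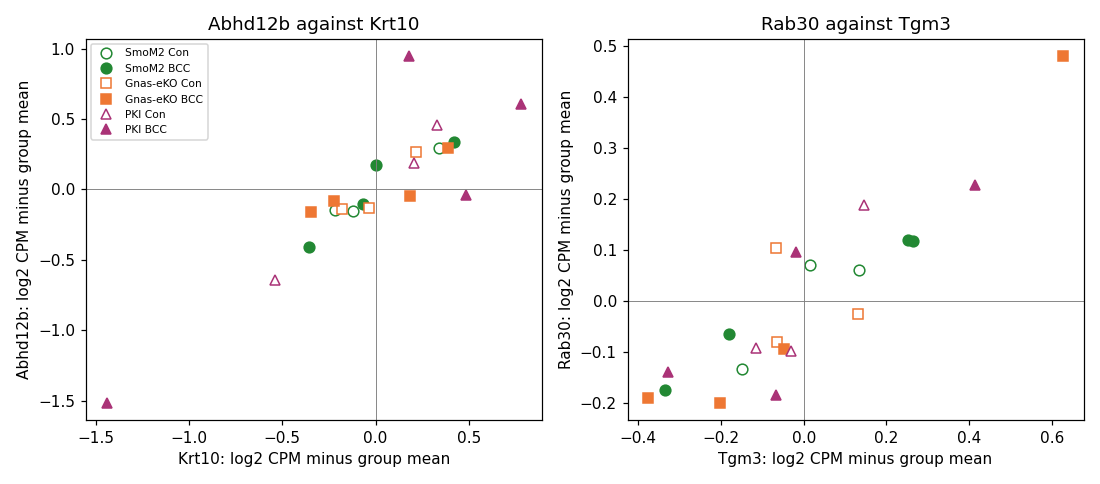
Log2 CPM minus the group mean in each of 21 libraries, for Abhd12b against Krt10 (left) and Rab30 against Tgm3 (right); colour and shape give the model, open symbols Con and filled symbols BCC. Points rise together in both plots (r = 0.882 and 0.893), and single tumour libraries lie farthest out.

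Nearest to Them5 were Gcat, a mitochondrial enzyme of threonine and glycine metabolism (r = 0.907, rho = 0.925), Prxl2b (r = 0.905) and Aox4, an aldehyde oxidase (r = 0.885). Without Gnas-eKO BCC replicates 2 and 4, r was 0.883, 0.779 and 0.697 for these 3. Nearest to Gpnmb were Als2cl (r = 0.855), the metalloproteinase gene Mmp28 (r = 0.811) and Arfip1 (r = 0.805), with r of 0.708, 0.492 and 0.558 once Gnas-eKO BCC replicates 1 and 2 were left out. Nearest to Sox15 were Inka2 (r = 0.873), Nfe2l2, the transcription factor of the oxidative stress response (r = 0.850), and Nup54, a nuclear pore gene (r = 0.800), with r of 0.740, 0.706 and 0.650 without SmoM2 Con replicate 3 and Gnas-eKO BCC replicate 1. No gene was among the 3 nearest of more than 1 of the 5.

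By level over the 21 libraries, where Con and BCC form separate sets and r mainly reflects that contrast, the nearest were Als2cl, Eps8l2 and Rapgefl1 for Gpnmb, Polr3g, Prxl2b and Mt4 for Them5, and Clip4, Tmem63a and Uvssa for Abhd12b. For Rab30 they were Gdpd2, Maf and Mettl7a1, and for Sox15 they were Plpp2, Igfbp2 and Plp2. The first of each had r of 0.945 (Als2cl), 0.953 (Polr3g), 0.961 (Clip4), 0.953 (Gdpd2) and 0.922 (Plpp2). Als2cl, Prxl2b and Clip4 were thus near their gene by both measures.

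Related genes were read from fixed lists that do not hold the 5 genes, with edgeR calls at an adjusted p under 0.05. Over all genes, the SmoM2 fit called 16.2% higher and 13.5% lower, the Gnas-eKO fit 1.46% and 0.165%, and the PKI fit 18.7% and 15.8%. The median log2 fold change over all genes was 0.00054, 0.020 and -0.0012 in these models. The Gnas-eKO fit called 267 genes in all, 0 without Con replicate 1 or 2 and 4 without Con replicate 3. It called 38 and 59 without BCC replicates 1 and 4. A Gnas-eKO call lost in these fits was lost together with most calls of all genes.

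Lysosome genes and targets of the MiT/TFE factors, which include known regulators of Gpnmb, were called in both directions. Of 30 tested, 2 rose and 11 fell in SmoM2 (median -0.17), and 4 rose and 4 fell in PKI (median -0.061). With 1 library left out the count that fell was 6 to 9 in SmoM2 (6 without Con replicate 2 or 3 or BCC replicate 1 or 4, 7 without BCC replicate 2) and 1 to 3 in PKI (1 without Con replicate 1 or BCC replicate 2, 2 without Con replicate 2 or BCC replicate 1 or 4), and with library-size scaling only it was 2 in either model. The count that rose in SmoM2 was 5 with library-size scaling only, more than the 2 that then fell, and 0 without Con replicate 2 and 1 without BCC replicate 1, 2 or 3. Ctsb, encoding cathepsin B, rose in PKI, from 292 to 316 CPM in Con to 433 to 568 CPM in BCC (log2 fold change 0.72, SE 0.10, edgeR adjusted p = 0.00083), as did Grn, encoding progranulin (0.41, SE 0.08, edgeR adjusted p = 0.0035). In SmoM2 Sgsh, encoding a lysosomal sulfatase, fell by 0.47 on the log2 scale (SE 0.11, edgeR adjusted p = 0.011), and was not called with library-size scaling only.

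Markers of cells known to carry Gpnmb gave the following. Of 13 melanocyte markers tested, 5 fell in SmoM2 (median -0.49) and 8 fell in PKI (median -0.77). The count was 2 without SmoM2 Con replicate 2 and 8 without SmoM2 Con replicate 1, and 4 without PKI Con replicate 3. In the alternatives that kept every library it was 2 to 6 in SmoM2 and 6 to 9 in PKI. Tyr, encoding tyrosinase, ranged in PKI from 11.9 to 13.9 CPM among controls and from 3.36 to 7.70 CPM among tumours (log2 fold change -1.14, SE 0.26, edgeR adjusted p = 0.0101), and Kit fell in SmoM2 by 1.02 (SE 0.23, adjusted p = 0.0090). The summed level of the 14 melanocyte markers was 160 to 270 CPM in SmoM2 Con and 149 to 206 in BCC, 154 to 228 in Gnas-eKO Con and 157 to 272 in BCC, and 201 to 258 in PKI Con and 99.9 to 162 in BCC. No melanocyte marker was at 0 throughout a group. Beside the Gpnmb level, which was lower in all 3 models, the melanocyte sum separated Con from BCC in PKI alone; its part in the Gpnmb values was not tested.

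Of the macrophage markers, 2 of 5 tested rose and 1 fell in SmoM2 (median 1.12), and 7 of 10 rose in PKI (median 2.92). Their summed level, over 12 genes, was 26.4 to 34.2 CPM in SmoM2 Con and 42.0 to 47.7 in BCC, 27.4 to 41.0 in Gnas-eKO Con and 36.1 to 66.1 in BCC, and 27.6 to 29.4 in PKI Con and 50.1 to 84.6 in BCC. One marker was at 0 throughout each Con group. The list did not move as one in SmoM2: mean levels went from 9.27 to 26.9 CPM for Mertk, from 12.0 to 4.04 CPM for Itgam and from 6.45 to 6.00 CPM for Csf1r, so that the higher SmoM2 sum rested on Mertk. Without Mertk, a sum chosen after seeing the data, the range was 19.3 to 26.7 CPM in SmoM2 Con and 15.7 to 20.2 in BCC, 20.2 to 29.0 in Gnas-eKO Con and 16.8 to 34.2 in BCC, and 17.4 to 21.2 in PKI Con and 40.9 to 76.1 in BCC. Then only the PKI tumours lay above all of their controls. In SmoM2 Mertk, a receptor for the uptake of dead cells, rose by 1.55 on the log2 scale (SE 0.20, edgeR adjusted p = 0.0005), and Itgam fell by 1.56 (SE 0.24, adjusted p = 0.0012). In PKI the complement gene C1qc was at 0 to 0.189 CPM in Con and 0.933 to 5.49 CPM in BCC. The part of macrophages in the Gpnmb values was not tested.

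The relatives of Abhd12b in the ABHD family were called lower more often than higher in SmoM2 and PKI. Of 19 tested, 1 rose and 4 fell in SmoM2 (median -0.15), and 2 rose and 7 fell in PKI (median -0.29; 5 to 8 fell with 1 library left out, and none rose without Con replicate 2 or 3). Abhd6, a monoacylglycerol lipase, fell in SmoM2 by 0.88 (SE 0.16, edgeR adjusted p = 0.0024), and Abhd1 by 1.83 (SE 0.28, adjusted p = 0.00099). In PKI Abhd3, a phospholipase, fell by 1.63 (SE 0.25, edgeR adjusted p = 0.0014) and Abhd14b by 0.94 (SE 0.19, adjusted p = 0.0049). Abhd12, the near namesake and a lysophosphatidylserine lipase, was chosen for naming after its values were seen: its log2 fold change was -0.23 (SE 0.08) for SmoM2, -0.45 (SE 0.16) for Gnas-eKO and -0.36 (SE 0.07) for PKI, with edgeR adjusted p = 0.063, 0.173 and 0.0037.

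The thioesterases around Them5 moved both ways. Of 14 acyl-CoA thioesterase genes tested, 4 rose and 2 fell in SmoM2 (median -0.057), and 4 rose and 3 fell in PKI (median 0.0069; 2 rose without Con replicate 2 or 3 or BCC replicate 2). Acot11 rose in SmoM2 (log2 fold change 1.36, SE 0.29, edgeR adjusted p = 0.0068) and in PKI (2.12, SE 0.31, adjusted p = 0.0012). Acot9, a mitochondrial thioesterase, fell in SmoM2 by 0.65 (SE 0.11, edgeR adjusted p = 0.0018), and Acot6 fell in PKI by 1.30 (SE 0.24, adjusted p = 0.0037). Acot1 was called higher in Gnas-eKO (0.96, SE 0.17, edgeR adjusted p = 0.0346), a call lost in 6 of 14 alternatives, among them the removal of any 1 Con library or of BCC replicate 1 or 4. Acot genes on chromosome 12 are near-identical copies, so counts of Acot1 and Acot6 may be shared with their neighbours.

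Genes of cardiolipin synthesis and remodelling, the lipid tied to Them5, were called in small numbers. Of 9 tested, 1 rose and 2 fell in SmoM2 (median -0.16), and 1 rose and 3 fell in PKI (median -0.070). The count that fell in SmoM2 was 1 to 3 with 1 library left out (1 without Con replicate 2). It was 0 to 2 in the alternatives that kept every library. Pla2g6, a phospholipase, rose in SmoM2 (0.74, SE 0.13, edgeR adjusted p = 0.0025) and fell in PKI by 0.66 (SE 0.18, adjusted p = 0.0218), the latter call being lost without Con replicate 3 or BCC replicate 2. Ptpmt1, a phosphatase of the pathway, rose in PKI (0.47, SE 0.12, edgeR adjusted p = 0.0118) and fell in SmoM2 by 0.46 (SE 0.11, adjusted p = 0.0113), a call lost with library-size scaling only. Taz, the cardiolipin transacylase tafazzin, fell in PKI by 0.45 (SE 0.07, edgeR adjusted p = 0.0017).

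The other Rab GTPases of the Golgi listed with Rab30 were called in both directions in SmoM2. Of 14 tested in SmoM2, 3 rose and 3 fell (median -0.14; 5 fell without Con replicate 1), and of 15 in PKI 2 rose and none fell (median -0.055). One of the 2 in PKI was Rab6a, whose call was lost in 11 of 14 alternatives, any 1 library left out among them. At an unadjusted p under 0.05 in edgeR, 3 Golgi Rab genes were higher and 7 lower in SmoM2, and 3 higher and 1 lower in PKI, where DESeq2 called 1 lower. Rab34, which acts at the Golgi and in the building of cilia, was called higher in BCC in all 3 models, while Rab30 was lower. Its level was 32.0 to 34.4 CPM in SmoM2 Con and 74.7 to 85.6 CPM in BCC (log2 fold change 1.25, SE 0.07, edgeR adjusted p = 3.81e-06), and 29.9 to 34.9 CPM in PKI Con and 43.6 to 49.2 CPM in BCC (0.54, SE 0.09, adjusted p = 0.0019). The Gnas-eKO call of Rab34 (1.02, SE 0.19, edgeR adjusted p = 0.041) was lost in 7 of 14 alternatives, among them the removal of any 1 library except BCC replicate 2. Rab10 fell in SmoM2 by 0.48 (SE 0.08, edgeR adjusted p = 0.0014).

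Other genes of the Sox family were called higher more often than lower in SmoM2 and PKI. Of 10 tested besides Sox15, 6 rose and 1 fell in SmoM2 (median 1.12), and 4 rose and 1 fell in PKI (median 0.023; 2 fell without Con replicate 2 or BCC replicate 3). Sox5 rose from 0.23 to 0.92 CPM in SmoM2 Con to 5.17 to 8.89 CPM in BCC, and from 0.541 to 0.758 CPM in PKI Con to 12.1 to 20.5 CPM in BCC (log2 fold changes 3.83, SE 0.41, and 4.63, SE 0.27; edgeR adjusted p = 0.00012 and 2.9e-05). Sox13 was called in Gnas-eKO as well (2.83, SE 0.39, edgeR adjusted p = 0.0211), a call lost without any 1 of the 3 Con libraries, and the call of Sox4 there (2.40, SE 0.47, adjusted p = 0.0489) was lost in 10 of 14 alternatives, among them the removal of any 1 library except BCC replicate 2. Sox21 was the one listed gene that fell in SmoM2, by 0.85 (SE 0.09, edgeR adjusted p = 0.0001), and Sox6 the one in PKI, by 1.39 (SE 0.31, adjusted p = 0.0113). Sox18, called in SmoM2 and PKI, stayed at 4.48 CPM or below in SmoM2.

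**Figure D5:**
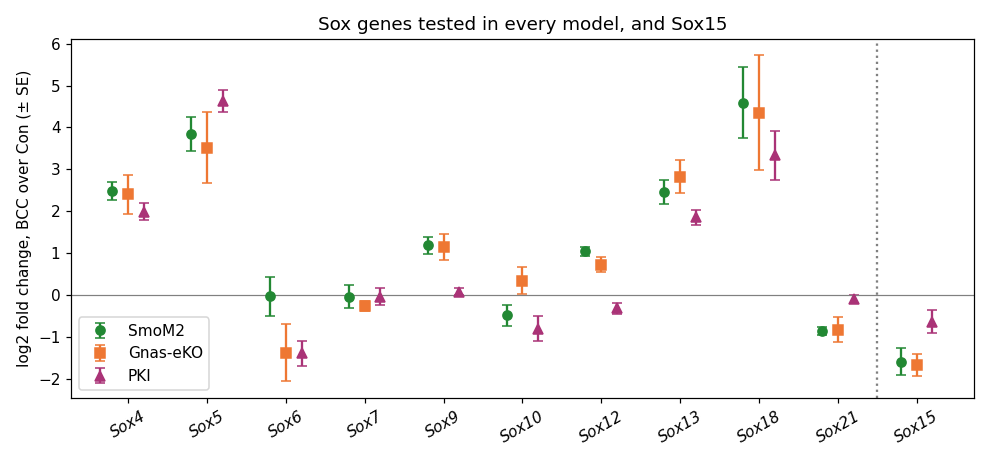
Log2 fold change of BCC over Con (vertical axis) for 10 Sox genes tested in every model and, right of the dotted line, for Sox15; points are edgeR estimates with SE, from 3 Con and 4 BCC libraries per model. Sox15 lies below 0 in each model (-1.59, -1.67 and -0.63), while Sox4, Sox5, Sox13 and Sox18 lie above 0.

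Of 13 suprabasal keratinocyte markers, genes of differentiation, 10 fell in SmoM2 (median -1.08; 6 without Con replicate 2 or 3), and 1 rose and 4 fell in PKI (median -0.47; 2 fell without Con replicate 2). The count that fell in PKI was 2 to 6 with 1 library left out and 3 to 9 in the alternatives that kept every library. The 1 that rose in PKI, Krt1, lost its call without any 1 library except BCC replicate 1. Dsc1, a desmosomal cadherin gene, fell in SmoM2 by 1.37 (SE 0.18, edgeR adjusted p = 0.00087), and Lor, encoding loricrin, fell in PKI by 2.35 (SE 0.29, adjusted p = 0.0012). Tgm3, called lower in Gnas-eKO (-1.21, SE 0.23, edgeR adjusted p = 0.0475), lost that call in 7 of 14 alternatives, among them the removal of any 1 library except BCC replicate 2. Their summed level was 32695 to 46621 CPM in SmoM2 Con and 17371 to 32946 in BCC, 28571 to 36553 in Gnas-eKO Con and 17509 to 31065 in BCC, and 25208 to 42380 in PKI Con and 17798 to 50776 in BCC. The suprabasal sums of Con and BCC overlapped in each model, in SmoM2 only at their edges. Krt10 and Krt1 made up most of the sum, and their means differed in opposite directions. For Krt10 the Con and BCC means were 21680 and 12211 CPM (SmoM2), 18568 and 10572 CPM (Gnas-eKO), and 20709 and 14290 CPM (PKI). For Krt1 they were 4622 and 6336 CPM, 3920 and 4978 CPM, and 4164 and 14425 CPM in the same order of models. Of these 6 differences, Krt10 in SmoM2 and Krt1 in PKI were called by edgeR. The part of differentiated cells in the levels of the 5 genes was not tested.

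Of the basal keratinocyte markers, 1 of 6 rose and 4 fell in SmoM2 (median -0.29; 2 fell without any 1 library except Con replicate 3), and 3 fell in PKI (median -0.23). Krt14 fell in SmoM2 by 1.20 (SE 0.11), and Krt15, a keratin of basal cells, fell in PKI by 0.94 (SE 0.10, edgeR adjusted p = 0.0002). Fibroblast markers rose for 2 of 6 genes in SmoM2 (median 1.45) and 3 of 6 in PKI (median 1.83; 5 without Con replicate 1), led in SmoM2 by Dcn and in PKI by Lum, genes of small matrix proteoglycans. Their summed level went from 17.2 to 39.8 CPM in SmoM2 Con to 387 to 525 in BCC, from 15.9 to 27.4 in Gnas-eKO Con to 94.3 to 579 in BCC, and from 15.8 to 43.5 in PKI Con to 84.4 to 145 in BCC. Most of that sum was Dcn, with Con and BCC means of 21.0 and 440 CPM (SmoM2), 14.8 and 247 CPM (Gnas-eKO), and 18.5 and 88.4 CPM (PKI). In SmoM2 Col3a1 (log2 fold change -0.071), Col1a1 (0.36), Pdgfra and Lum were not called by edgeR.

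All 7 Langerhans and dendritic cell markers rose in PKI (5 to 7 with 1 library left out), and in SmoM2 edgeR called none, with none at an unadjusted p under 0.05 and none in DESeq2. In SmoM2 1 was called higher without Con replicate 3 or BCC replicate 4 or with a replicate block, and 1 lower without BCC replicate 2. In PKI their summed level was 50.6 to 174 CPM among controls and 419 to 896 CPM among tumours. Of the T cell markers, 4 of 6 rose in PKI (median 1.19; 2 without Con replicate 2 or 3 or BCC replicate 2), and 1 of 4 fell in SmoM2 (Thy1; median of the list 0.24). Sebocyte markers fell for 2 of 10 genes in PKI (median -0.93), 0 to 5 with 1 library left out (0 without Con replicate 2 or 3 or BCC replicate 2, 3 or 4, 1 without Con replicate 1, 5 without BCC replicate 1). Of 5 Hedgehog targets, 4 rose in SmoM2 and 4 in PKI (medians 4.70 and 2.93). The other, Hhip, was not called by edgeR in either model, while DESeq2 called all 5 targets higher in SmoM2. Its mean went from 11.1 CPM in Con to 153 CPM in BCC in SmoM2. In PKI it went from 19.4 CPM (1.70 to 52.1) in Con to 3.94 CPM in BCC. The single endothelial marker tested, Pecam1, had log2 fold changes of 0.78, 0.66 and 0.69 and was not called by edgeR in any model. Its unadjusted p was under 0.05 in SmoM2 and PKI; DESeq2 called it higher in SmoM2, as did edgeR without SmoM2 Con replicate 3, and edgeR called it in PKI without Con replicate 1. The part of these other cell types in the levels of the 5 genes was not tested.

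Of the listed genes few were called in Gnas-eKO, where 1.63% of all genes were. Without BCC replicate 2 the edgeR fit called 1910 of 16195 genes, 1192 higher and 718 lower. Counts given without that library are to be read beside these numbers. In alternatives that kept every library, up to 4 lysosome genes were called lower and up to 2 higher. For the ABHD family up to 4 were called lower and 0 higher. The edgeR fit called 3 of 5 Hedgehog targets higher (median 4.14; 0 without Con replicate 1 or 2, 1 without Con replicate 3, 4 without BCC replicate 2), 2 of 10 Sox genes (median 0.94; 0 without any 1 Con library, 1 without BCC replicate 1 or 4; without BCC replicate 2, 4 were higher and 2 lower), and 1 gene each of the thioesterases (Acot1; median -0.095; 2 without BCC replicate 2), the Golgi Rab genes (Rab34; median -0.062; 1 also lower without BCC replicate 2) and the fibroblast markers (Dcn; median 3.07). Dcn lost its call without any 1 library except BCC replicates 2 and 3, and 5 of 6 fibroblast markers were called without BCC replicate 2. The edgeR fit called 1 suprabasal marker lower (Tgm3, list median -0.21), and 4 without BCC replicate 2. With DESeq2, 6 Sox genes, 4 Hedgehog targets and 5 fibroblast markers were called higher, and 1 suprabasal marker was called higher and 3 lower. Over all genes DESeq2 called 1540 of 18513, 1135 higher and 405 lower. No gene was called by edgeR among the lysosome genes (median -0.15; 2 higher and 4 lower at an unadjusted p under 0.05; DESeq2 called 2 higher; 1 higher and 1 lower without BCC replicate 2), the ABHD family (median -0.071; 1 higher and 5 lower unadjusted; DESeq2 called 1 lower; 3 lower without BCC replicate 2) or the cardiolipin genes (median -0.080; none unadjusted, none in DESeq2). The same held for the melanocyte markers (median 0.050; 1 higher unadjusted, none in DESeq2), the macrophage markers (median 0.95; 3 higher and 1 lower unadjusted; 1 higher and 1 lower in DESeq2 and without BCC replicate 2) and the basal keratinocyte markers (median -0.39; 1 lower unadjusted and in DESeq2; 2 lower without BCC replicate 2). It also held for the T cell (1 higher and 1 lower unadjusted; 1 lower in DESeq2 and without BCC replicate 2), Langerhans and sebocyte markers (1 higher unadjusted in each, none in DESeq2).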

How the data were processed

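The authors deposited a gene table of estimated counts for 21 libraries (33.1% of values were not whole) and a signal table, the deposited counts multiplied by 1 factor per library with a small constant added. Per the submitters' processing notes, bcl2fastq 2.20, cutadapt 1.18, STAR 2.7.0f, Partek and the build mm10 were used; their settings are not given in the sources used here. Columns were matched to samples by library number and batch.

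Rounded estimated counts entered edgeR 4.0.16 (R 4.3.3): trimmed mean (TMM) scaling, filterByExpr, robust quasi-likelihood fit, Benjamini-Hochberg adjustment over all genes, threshold 0.05, each model fitted alone. DESeq2 1.42.0 and limma 3.58.1 (on log2 of the signal table plus 1) were alternatives, with other scalings, no filter, a replicate block, a joint fit and each library left out. Correlations used log2 CPM with a prior count of 2 and 100000 permutations within groups. The scripts were tested on simulated data. Whether libraries of a group are separate mice is not stated, so p-values measure the spread between these libraries.

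Besides the 5 genes, those named were: per list and model up to 2 called genes that rose and 2 that fell the most (not all are reported here), overlapping genes, and the 3 most alike genes by each measure. The genes and lists were chosen with earlier results of these data known.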

Additional observations from a re-analysis of the deposited data

Results flagged for a closer look

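In each of the 15 groups of 4 tumour libraries formed by 5 genes and 3 models, the highest and the lowest library were compared with the nearest of the others; chance alone marks about 1 group in 20, and 2 of 15 were marked. Gpnmb in PKI BCC replicate 3 was at 78.1 CPM against 44.5 CPM in the next library, a gap of 0.962 of the range of the group. The same library was also the highest PKI tumour for Abhd12b and Rab30. Rab30 in Gnas-eKO BCC replicate 2 was at 25.7 CPM against 17.2 CPM in the next, a gap of 0.873 of the range, in the library whose Gli1 level was that of its controls.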

How the results depend on the processing

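The 15 log2 fold changes of the 5 genes kept their sign in all 210 alternatives. The largest move was that of Sox15 in SmoM2 without Con replicate 1, from -1.59 (SE 0.33) to -1.21. The control tests of the 5 genes stayed above the threshold in all 14 alternatives each, the lowest adjusted p being 0.157 (Abhd12b). Of 2794 alternatives for named list genes, 229 changed a call and none reversed. In Gnas-eKO 267 genes were called (240 higher, 27 lower): 1540 with the DESeq2 Wald test (73.7% higher), 2644 in the joint fit of 21 libraries (59.5% higher), 135 with a replicate block, and 0 to 1910 with 1 library left out (0 without Con replicate 1 or 2, 4 without Con replicate 3, 38, 1910 and 59 without BCC replicates 1, 2 and 4). Across the controls 268 were called: 783 with the DESeq2 likelihood ratio test, 130 with a replicate block, 144 to 325 with 1 library left out. The counts for SmoM2 (4860) and PKI (5653) stayed within 3428 to 5321 and 4057 to 6176. Same-numbered Con and BCC libraries deviated together with r of -0.20 to -0.070 in SmoM2, 0.089 to 0.23 in Gnas-eKO and -0.0099 to 0.30 in PKI, and not every library matched its own number best, so the numbers were not taken as pairs and the replicate block is an alternative only. Correlations: Gpnmb with Them5 turned to -0.0463 without the Gnas-eKO BCC group and -0.201 without the 2 farthest libraries, Them5 with Rab30 to -0.137 and -0.0768, and Abhd12b with Them5 passed at 0.528 (permutation, adjusted p = 0.0136) without the 2 farthest. Library-size scaling shifts the median of all genes by 0.13 in SmoM2; the cause of these changes was not tested. Sox15 in tumours rested on 57 counts in its thinnest library, Abhd12b on 41.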
